A study of Mus musculus with 6 samples.

Results

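NAD synthesis and consumption were followed through 10 genes in mouse retinal ganglion cell RNA: Nmnat1, Nmnat2, Nmnat3, Sarm1, Nampt, Naprt, Cd38, Nmrk1, Qprt and Nadk. They were chosen by name, as enzymes of 1 pathway, and all 10 were found among the 55335 genes of the count table. All 10 also passed the filter on low counts, which left 17687 genes to test. The RNA was pulled down from fresh retinal homogenate with an antibody against HA, a short peptide tag. The protein that carried the tag is not named in the labels, which give the animals as wild type C57BL/6 mice of 10 weeks and name the retinal ganglion cell, which sends its axon through the optic nerve to the brain, as the cell type. There were 3 libraries of naive mice and 3 of mice with SOHU ("under-detected" ocular hypertension caused by silicone oil), a glaucoma model, collected 1 week after oil was placed in the anterior chamber of the eye. The treatment text with the oil injection is attached to the naive libraries too, so the groups rest on the library titles and the labelled condition. Whether a library came from 1 animal or a pool is not given, so the p-values cover the spread among these libraries only, part of which may be technical.

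NAD is the cofactor that carries electrons in energy metabolism and the substrate that sirtuins, PARPs, CD38 and SARM1 break down. Cells make it from nicotinamide through NAMPT, from nicotinic acid through NAPRT, from nicotinamide riboside through NMRK1 and from tryptophan through QPRT, and all of these routes pass through an NMNAT, the enzyme that joins the precursor mononucleotide to the adenylate part. NMNAT1 is the nuclear, NMNAT2 the cytosolic and axonal and NMNAT3 the mitochondrial isoenzyme. NMNAT2 is short-lived and has to be carried down the axon continually. When it runs out, its substrate NMN builds up and NAD falls, and SARM1, an NAD-cleaving enzyme, is switched on and the axon degenerates.

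Of the 10 genes, Naprt and Cd38 rose and Nmnat2 and Sarm1 fell in SOHU, while 6 did not pass the threshold, a Benjamini-Hochberg adjusted p under 0.05 in edgeR over all genes tested. Naprt rose 2.50-fold and Cd38 2.98-fold, and Nmnat2 fell 1.77-fold and Sarm1 1.54-fold, although with libraries scaled to ganglion cell markers the log2 fold changes of these were 0.36 and 0.51. Among all genes tested 13.9% passed, 8.02% as higher and 5.93% as lower. The median log2 fold change was 0.33 over the 10 genes and 0.01 over all genes. Levels are given as CPM, reads scaled to a common library size after scaling the libraries by TMM, a method that equalises the bulk of genes between libraries. Fold changes compare SOHU with naive.

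Total reads ranged from 21691354 to 26824919, and the 10 genes had between 19 and 2361 reads per library. Ganglion cell markers were present in each library, with none of 19 at 0, and 18 of them fell in SOHU (median log2 fold change -1.08), so that their summed share of the reads was 0.449 to 0.721% in naive and 0.213 to 0.315% in SOHU. Müller glia and astrocyte markers made up 1.07 to 1.36% and 1.92 to 3.39%, and 8 of 15 rose. In the microglia and leukocyte list 5 of 13 tested genes rose, and the shares overlapped, at 0.00108 to 0.0216% and 0.0121 to 0.0259%. Of 12 rod markers 0 passed in edgeR (1 at an unadjusted p under 0.05, 1 in DESeq2), and 4 of 12 amacrine markers fell. Among bipolar markers 1 of 10 rose, and among vascular markers 3 of 7 tested, namely Kdr, Flt1 and Pdgfrb. The other 4 tested vascular markers did not pass. Pecam1 and Cdh5 of that list, with 0 to 13 reads per library, could not be tested. RNA of other retinal cells was thus present in both groups. Fewer ganglion cells and less RNA per ganglion cell cannot be told apart in such bulk libraries. No library of RNA before the pull-down was among them, so a difference in the pull-down between groups cannot be told apart from these either.

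**Figure D1:**
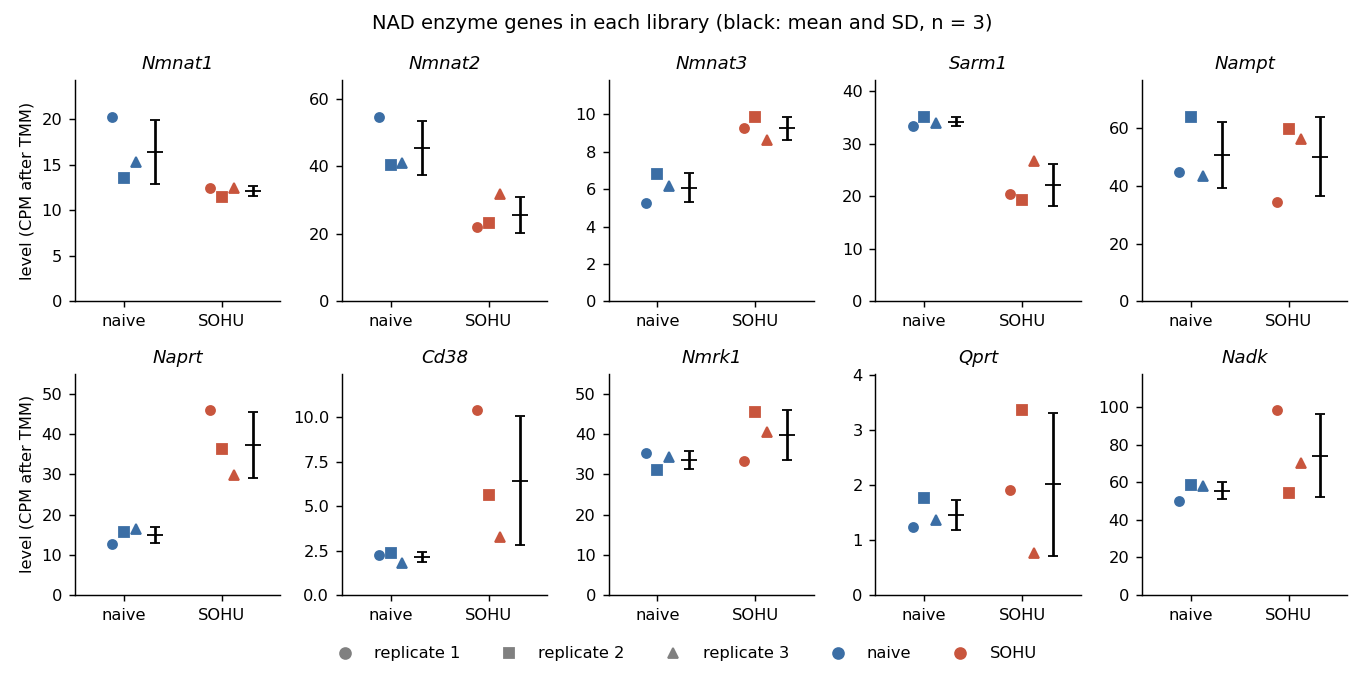
Level of each of the 10 genes in CPM after TMM (linear axes from 0), with 1 point per library, the marker shape giving the replicate number and the black bar the mean ± SD of 3 libraries. The naive and SOHU points do not overlap for Nmnat1, Nmnat2 and Sarm1, where SOHU is lower, or for Nmnat3, Naprt and Cd38, where SOHU is higher. Scaled to ganglion cell markers instead, Nmnat1, Nmnat2, Sarm1 and Nampt have positive changes.

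The series title names Nmnat2, and Sarm1 is the enzyme that its product holds in check. The sequences before the starts of these genes, the pair called lower, are shown first. Transcription of Nmnat2 is known to respond to CREB, a factor that binds cyclic AMP response elements with the core TGACG. The stretches are from RefSeq (GRCm38.p6, the assembly of mm10), they end where the gene begins in the deposited annotation, and capitals mark TGACG on either strand, which reads CGTCA when it lies on the other strand.
Nmnat2, chr1:152954851-152954992, plus strand: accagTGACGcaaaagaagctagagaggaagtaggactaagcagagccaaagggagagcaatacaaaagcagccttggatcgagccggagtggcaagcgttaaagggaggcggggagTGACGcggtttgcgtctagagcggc
Sarm1, chr11:78497755-78498004, minus strand: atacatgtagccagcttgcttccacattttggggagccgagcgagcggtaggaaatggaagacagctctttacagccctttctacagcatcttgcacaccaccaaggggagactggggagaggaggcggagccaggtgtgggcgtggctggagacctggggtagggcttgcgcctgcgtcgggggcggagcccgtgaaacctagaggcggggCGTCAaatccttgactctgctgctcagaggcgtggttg
The Nmnat2 stretch holds the letters 2 times and the Sarm1 stretch 1 time. A promoter sequence was listed for 9 of the 10 genes, and in the 250 bases before the start the letters were found in 3 of them, Nmnat2, Sarm1 and Nampt. These are 3 of 11 windows, since a gene can have more than 1 listed start. Over 32851 such windows of mouse genes, 17.8% held the letters at least once and 3.9% held them 2 or more times. A match is a description of the letters only.

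The gene Nmnat2 lies on the plus strand of mm10 chromosome 1 from 152954993 to 153119261 (ENSMUSG00000042751.14). It stood at 54.6, 40.3 and 41.0 CPM in naive replicates 1 to 3 and at 21.9, 23.2 and 31.7 CPM in SOHU replicates 1 to 3. Naive replicate 1 was the highest and SOHU replicate 3 the nearest to the naive libraries, and the groups did not overlap. The mean went from 45.3 ± 8.09 to 25.6 ± 5.32 CPM (SD, n = 3 each), a log2 fold change of -0.83 (SE 0.19, 95% interval -1.26 to -0.40, edgeR adjusted p = 0.0248). The ganglion cell markers took the same place in these libraries, with 0.721, 0.449 and 0.523% of the reads in naive and 0.217, 0.213 and 0.315% in SOHU replicates 1 to 3. The part of that in the fall of Nmnat2 was not tested. With libraries scaled to the summed ganglion cell markers the log2 fold change was 0.36 (edgeR adjusted p = 0.336), where the median of all genes was 1.19. Relative to the median of all genes, Nmnat2 was at -0.84 with TMM and at -0.83 with the marker scaling. A change of scaling shifts all genes by nearly the same amount, so these values had to be alike and are a single result. Leaving out naive replicates 1, 2 and 3 in turn brought the edgeR adjusted p to 0.116, 0.0564 and 0.0759, and leaving out SOHU replicate 2 to 0.0885, so that the call was lost; in DESeq2 the call held in all 6 omissions.

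Sarm1 (ENSMUSG00000050132.13, mm10 chromosome 11, 78472330 to 78497754, minus strand) was nearly level in the naive libraries, at 33.5, 35.1 and 33.9 CPM. SOHU replicates 1 to 3 had 20.4, 19.3 and 26.7 CPM, all below the naive libraries, and SOHU replicate 3 was again the nearest to them. The mean fell from 34.2 ± 0.873 to 22.1 ± 4.03 CPM (SD, n = 3 each), a log2 fold change of -0.63 (SE 0.16, 95% interval -0.99 to -0.26, edgeR adjusted p = 0.0353). Scaled to the ganglion cell markers it was 0.51 (edgeR adjusted p = 0.175). The edgeR call held only without SOHU replicate 3, and without naive replicates 1, 2 and 3 and SOHU replicates 1 and 2 the adjusted p was 0.118, 0.112, 0.113, 0.051 and 0.106. In DESeq2 it held in all 6 omissions.

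With TMM the other NMNAT isoenzymes moved less than Nmnat2 and did not pass in edgeR. Scaled to the ganglion cell markers they moved more, at 0.79 for Nmnat1 and 1.76 for Nmnat3 against 0.36 for Nmnat2. Nmnat1 (ENSMUSG00000028992.13, mm10 chromosome 4, 149467572 to 149485202, minus strand) had 20.2, 13.5 and 15.3 CPM in naive and 12.4, 11.4 and 12.5 CPM in SOHU replicates 1 to 3. The SOHU libraries lay below the naive ones, with naive replicate 2 close to SOHU replicate 3. Its log2 fold change of -0.43 did not pass (SE 0.19, 95% interval -0.87 to 0.00, edgeR adjusted p = 0.163). With the ganglion cell marker scaling Nmnat1 passed as higher (edgeR adjusted p = 0.0496), as did 72.8% of all genes tested. Nmnat3 (ENSMUSG00000032456.13, mm10 chromosome 9, 98287435 to 98420438, plus strand), the least abundant of the 3, had 5.28, 6.79 and 6.19 CPM in naive and 9.27, 9.87 and 8.62 CPM in SOHU. Here the SOHU libraries lay above all naive libraries. Its log2 fold change of 0.60 did not pass (SE 0.20, 95% interval 0.16 to 1.05, edgeR adjusted p = 0.0696), and DESeq2 called it (adjusted p = 0.032). In all, groups did not overlap for 6 of the 10 genes, 3 with SOHU higher and 3 with SOHU lower, against 39% of all genes tested (19.3% and 19.7%).

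**Figure D2:**
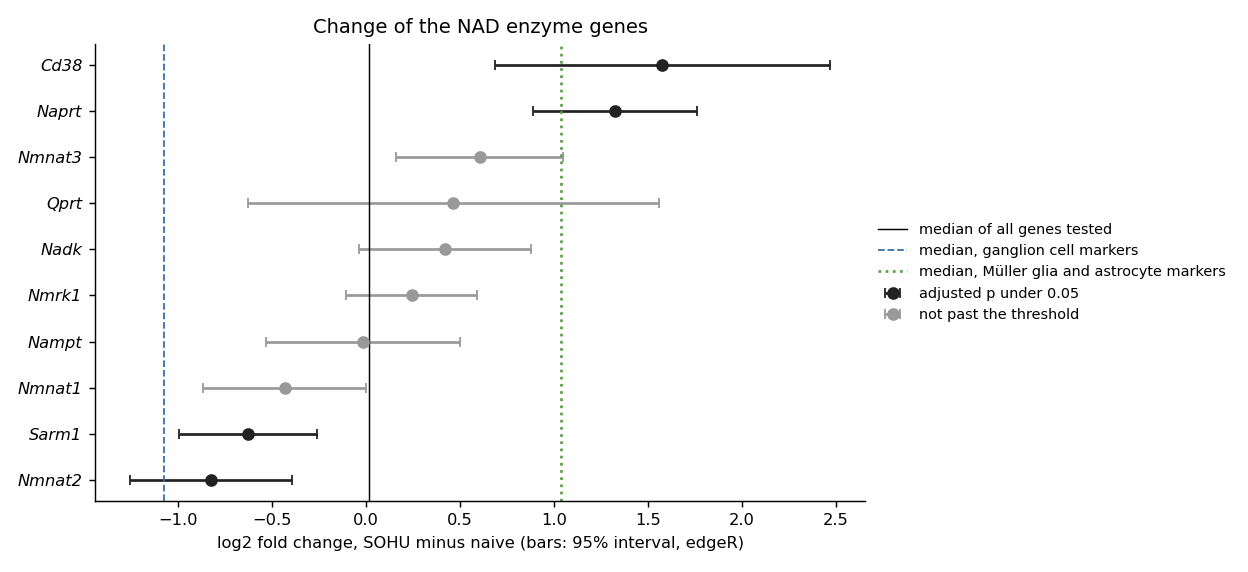
Log2 fold change of the 10 genes, SOHU minus naive, with 95% intervals from edgeR over 3 libraries per group; black points passed the threshold and grey points did not. Nmnat2 and Sarm1 lie between the median of all genes (0.01) and the ganglion cell marker median (-1.08), while Naprt and Cd38 lie beyond the Müller glia and astrocyte marker median (1.04); scaled to ganglion cell markers, Nmnat1, Nmnat2, Sarm1 and Nampt turn positive.

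Because ratios within a library do not depend on how libraries are scaled, 7 ratios between members were compared, each per kb of exon. They can still differ with the mix of cells in a library, and ganglion cell and glial marker shares differed between the groups. The part of that in the ratios was not tested. Levels per kb use the exon length in the deposited table, which joins all annotated exons of a gene. The isoenzyme balance differed most for Nmnat2 over Nmnat3, which was 8.94, 5.12 and 5.72 in naive and 2.04, 2.03 and 3.17 in SOHU replicates 1 to 3. All SOHU libraries were below all naive libraries. The log2 ratio went from 2.68 ± 0.43 to 1.24 ± 0.37 (SD, n = 3 each), a 2.71-fold difference, with an exact two-sided permutation p = 0.1, the smallest that 3 against 3 allow, and 0.14 after adjustment over the 7 ratios. Nmnat1 over Nmnat3 behaved alike, at 6.31, 3.27 and 4.06 in naive and 2.21, 1.91 and 2.38 in SOHU (2.03-fold lower, exact permutation p = 0.1, adjusted 0.14). Nmnat2 over Nmnat1 differed by less, at 1.42, 1.57 and 1.41 in naive and 0.923, 1.06 and 1.33 in SOHU (1.34-fold lower, exact permutation p = 0.1, adjusted 0.14).

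Put as shares of the summed NMNAT level per kb, Nmnat2 made up 55.0, 54.6 and 53.1% in naive and 38.9, 41.1 and 48.4% in SOHU. Nmnat3 made up 6.14, 10.6 and 9.25% and then 19.0, 20.2 and 15.2%. Nmnat1 stayed between 34.8 and 42.1% in all 6 libraries, and its groups overlapped. The sum of the 3 isoenzymes was 17.2, 12.8 and 13.4 CPM per kb in naive and 9.72, 9.75 and 11.3 CPM per kb in SOHU, so that with TMM the share of Nmnat3 was larger within a smaller sum. Scaled to the ganglion cell markers, the log2 fold changes of Nmnat1, Nmnat2 and Nmnat3 were all positive (0.79, 0.36 and 1.76), and the sum was then not smaller. The shares do not depend on the scaling, but like the ratios they can differ with the mix of cells, which was not tested.

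**Figure D3:**
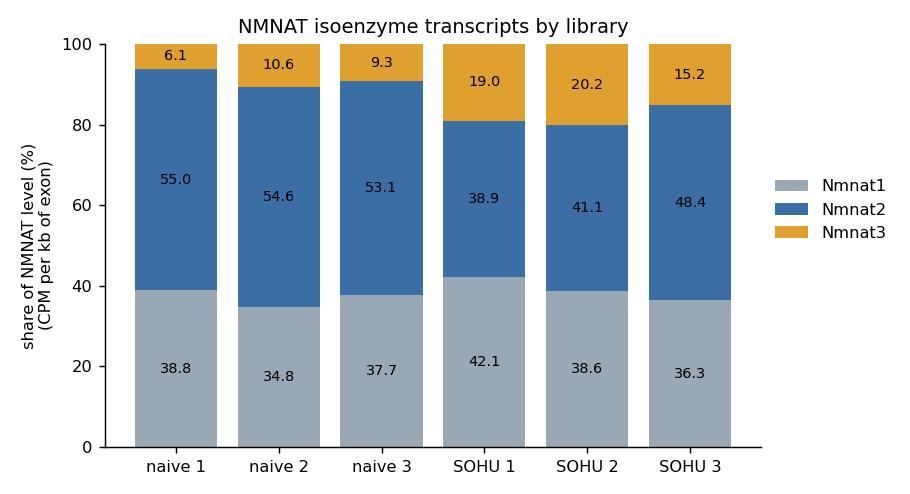
Share of each NMNAT isoenzyme in the summed NMNAT level per kb of exon (percent, 1 bar per library). Nmnat2 holds at least 53.1% in each naive library and at most 48.4% in SOHU, Nmnat3 at most 10.6% in naive and at least 15.2% in SOHU.

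Nmnat2 over Sarm1 sets the NAD-making enzyme of the axon against the NAD-cleaving one. The ratio was 1.59, 1.12 and 1.18 in naive and 1.05, 1.17 and 1.15 in SOHU replicates 1 to 3, so the groups overlapped and naive replicate 1 alone stood higher. The log2 ratio was 0.35 ± 0.28 in naive and 0.17 ± 0.09 in SOHU (SD, n = 3 each; difference -0.19, exact permutation p = 0.4, adjusted 0.467). Without naive replicate 1 the difference was -0.03. A shift of 1 gene against the other was not detectable with these libraries.

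Naprt encodes nicotinate phosphoribosyltransferase, the entry enzyme of the nicotinic acid route, and had the smallest p of the 10 genes. Naprt (ENSMUSG00000022574.7, mm10 chromosome 15, 75890956 to 75894481, minus strand) had 12.6, 15.7 and 16.3 CPM in naive and 45.8, 36.3 and 29.7 CPM in SOHU replicates 1 to 3. The lowest SOHU library was well above the highest naive one. The mean rose from 14.9 ± 1.98 to 37.3 ± 8.10 CPM (SD, n = 3 each), a log2 fold change of 1.32 (SE 0.20, 95% interval 0.89 to 1.76, edgeR adjusted p = 0.00993). The call was lost in edgeR without naive replicate 1 (adjusted p = 0.0706) or naive replicate 3 (0.063). DESeq2 kept it in all 6 omissions. Naprt shares 277 exon bases with Eef1d, a translation elongation factor gene on the same strand with 9465 reads over the 6 libraries against 3707 for Naprt, so its reads in that stretch are uncertain.

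Nampt, the rate-limiting enzyme of the nicotinamide salvage route (ENSMUSG00000020572.8, mm10 chromosome 12, 32819545 to 32853349, plus strand), had 44.7, 63.9 and 43.2 CPM in naive and 34.3, 59.5 and 56.3 CPM in SOHU. The groups overlapped over most of their range. Its log2 fold change was -0.02 (95% interval -0.53 to 0.50, edgeR adjusted p = 0.97). The sign turned without naive replicate 2 (0.19) or SOHU replicate 1 (0.19). Naprt over Nampt, per kb, was 0.610, 0.531 and 0.814 in naive and 2.88, 1.32 and 1.14 in SOHU replicates 1 to 3. The ratio was thus below 1 in each naive and above 1 in each SOHU library, 2.54-fold higher on average (log2 ratio -0.64 ± 0.31 to 0.70 ± 0.72, SD, n = 3 each; exact permutation p = 0.1, adjusted 0.14).

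Nmrk1, the kinase that acts on nicotinamide riboside (ENSMUSG00000037847.14, mm10 chromosome 19, 18631950 to 18652428, plus strand), had 35.3, 31.1 and 34.4 CPM in naive and 33.3, 45.4 and 40.6 CPM in SOHU. SOHU replicate 1 lay within the naive range and the others above it. The log2 fold change was 0.24 (95% interval -0.10 to 0.59, edgeR adjusted p = 0.318). Nmrk1 over Nampt overlapped between the groups, at 0.666 to 1.09 in naive and 0.987 to 1.33 in SOHU (exact permutation p = 0.6, adjusted 0.6). Qprt, which feeds the route from tryptophan (ENSMUSG00000030674.5, mm10 chromosome 7, 127107114 to 127122226, minus strand), had only 32, 41 and 31 reads in naive and 46, 75 and 19 reads in SOHU. SOHU replicate 3 was the lowest and SOHU replicate 2 the highest of all libraries. Its log2 fold change of 0.47 (95% interval -0.63 to 1.56, edgeR adjusted p = 0.555) turned to -0.10 without SOHU replicate 2.

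Nadk encodes the cytosolic NAD kinase, which makes NADP, and was the most abundant of the 10 genes per kb. Nadk (ENSMUSG00000029063.16, mm10 chromosome 4, 155562378 to 155591001, plus strand) had 50.2, 58.4 and 57.7 CPM in naive and 98.1, 54.2 and 70.0 CPM in SOHU replicates 1 to 3. SOHU replicate 1 stood far above the rest, while SOHU replicate 2 lay within the naive range. The log2 fold change was 0.42 (95% interval -0.04 to 0.88, edgeR adjusted p = 0.195).

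Cd38 encodes an NAD glycohydrolase of the cell surface, found on immune and glial cells. Cd38 (ENSMUSG00000029084.5, mm10 chromosome 5, 43868553 to 43912375, plus strand) was low, with 59, 55 and 41 reads in naive and 250, 126 and 80 reads in SOHU replicates 1 to 3. These are 2.27, 2.36 and 1.81 CPM in naive against 10.4, 5.65 and 3.25 CPM in SOHU. Each SOHU library was above each naive library, and the SOHU libraries themselves spread over a wide range with replicate 1 highest. The mean rose from 2.15 ± 0.295 to 6.43 ± 3.63 CPM (SD, n = 3 each), a log2 fold change of 1.58 (SE 0.40, 95% interval 0.69 to 2.47, edgeR adjusted p = 0.0321). The edgeR call held only without SOHU replicate 3. Without naive replicates 1, 2 and 3 the edgeR adjusted p was 0.119, 0.0866 and 0.124, and without SOHU replicates 1 and 2 it was 0.0615 and 0.080. Without SOHU replicate 1 the log2 fold change was 1.04. DESeq2 kept the call in all 6 omissions.

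The SOHU libraries had the same order for Cd38 and Naprt, replicate 1 above 2 above 3, and the same order was found for the share of Müller glia and astrocyte markers. These made up 3.39, 2.59 and 1.92% of the reads in SOHU replicates 1 to 3, against 1.07, 1.36 and 1.27% in naive. Apoe alone had 429912, 312643 and 227254 reads in SOHU replicates 1 to 3. The mean level of the 15 markers had that order too, at 8.691, 8.217 and 7.895 log2 CPM in SOHU. By CPM, Sox9, Aldh1l1, Car14 and Pdgfra of this list did not have it. The share of microglia and leukocyte markers did not have that order, at 0.0125, 0.0259 and 0.0121% in SOHU and 0.00108, 0.0216 and 0.015% in naive. Of that list, Cd74 alone had 49, 3820 and 1764 reads in SOHU and 76, 4242 and 2880 reads in naive replicates 1 to 3. The mean level of the 14 microglia and leukocyte markers did have that order in SOHU, at 2.25, 1.95 and 1.17 log2 CPM. In naive this mean was -1.18, 1.48 and 0.49 log2 CPM. No marker of either list was at 0 in any library. The part of glial and immune RNA in the rises of Cd38 and Naprt was not tested. Cd38 over Sarm1, the pair of NAD-cleaving enzymes, was 0.099, 0.0981 and 0.0782 per kb in naive and 0.739, 0.425 and 0.177 in SOHU. Sarm1 remained the more abundant transcript in each library, though the ratio was 4.18-fold higher in SOHU (exact permutation p = 0.1, adjusted 0.14).

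**Figure D4:**
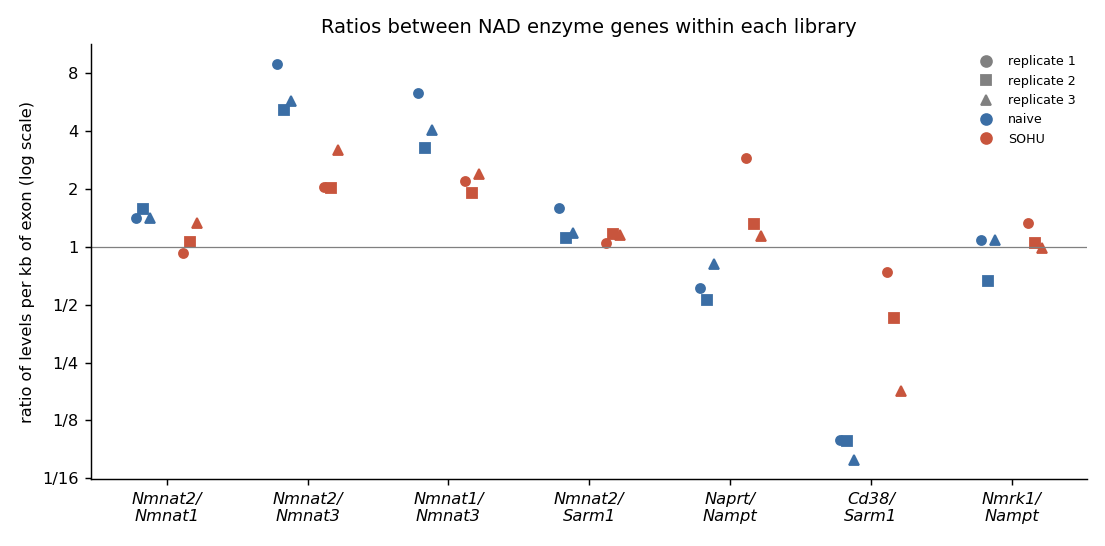
Ratios of the levels per kb of exon within each library (log scale), with marker shape for the replicate number. Nmnat2 and Nmnat1 over Nmnat3 are lower and Naprt over Nampt and Cd38 over Sarm1 higher in each SOHU library than in each naive library, while Nmnat2 over Sarm1 and Nmrk1 over Nampt overlap.

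Ordered by level per kb, the naive libraries had Nadk (14.8 ± 1.22 CPM per kb) above Nampt (10.0 ± 2.28), Nmrk1 (9.10 ± 0.603), Nmnat2 (7.84 ± 1.40), Naprt (6.35 ± 0.845), Sarm1 (6.07 ± 0.155), Nmnat1 (5.38 ± 1.15), Nmnat3 (1.22 ± 0.152), Cd38 (0.552 ± 0.0758) and Qprt (0.550 ± 0.104; all SD, n = 3). Neighbours overlapped from Nampt to Nmnat2, from Naprt to Nmnat1, and between Cd38 and Qprt. In SOHU the order was Nadk (19.8 ± 5.93), Naprt (15.9 ± 3.46), Nmrk1 (10.8 ± 1.65), Nampt (9.90 ± 2.71), Nmnat2 (4.42 ± 0.920), Nmnat1 (3.99 ± 0.193), Sarm1 (3.93 ± 0.717), Nmnat3 (1.85 ± 0.125), Cd38 (1.65 ± 0.933) and Qprt (0.762 ± 0.491). Naprt had thus gone from the fifth place to the second, where its range overlapped that of Nadk. Nmnat2, Nmnat1 and Sarm1 formed a group whose neighbouring ranges overlapped. Among all genes tested, the level per kb over the 6 libraries put Nadk at the 80.4th percentile, Nmnat2 at the 61.0th, Sarm1 at the 56.5th and Cd38 at the 26.5th.

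Set against the ganglion cell markers of the same library, the 10 genes had no lower member in SOHU. The measure was the log2 CPM of the gene minus the mean log2 CPM of the 19 markers. For Nmnat2 it was -1.53, -1.31 and -1.50 in naive and -1.18, -1.10 and -1.15 in SOHU replicates 1 to 3, a difference of 0.30. For Sarm1 it was -2.24, -1.50 and -1.77 and then -1.28, -1.37 and -1.40, a difference of 0.49. These were the smallest differences of the 10, and the SOHU libraries lay close together in both. Nmnat1 differed by 0.72, Nampt by 1.10, Nmrk1 by 1.37, Qprt by 1.38, Nadk by 1.51, Nmnat3 by 1.74, Naprt by 2.44 and Cd38 by 2.55. Groups did not overlap except for Qprt, and the exact permutation p was 0.1 for those that did not and 0.3 for Qprt. On this measure 77.7% of all genes tested had SOHU above naive without overlap and 0.102% had SOHU below, so the count of 9 of 10 is near the background. The whole table shifted in the same sense, since the median of all genes was 1.19 when libraries were scaled to these markers. Relative to that median Nmnat2 was at -0.83 and Sarm1 at -0.67. Such distances from the median hardly depend on the scaling by construction, so they add nothing to the result with TMM.

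**Figure D5:**
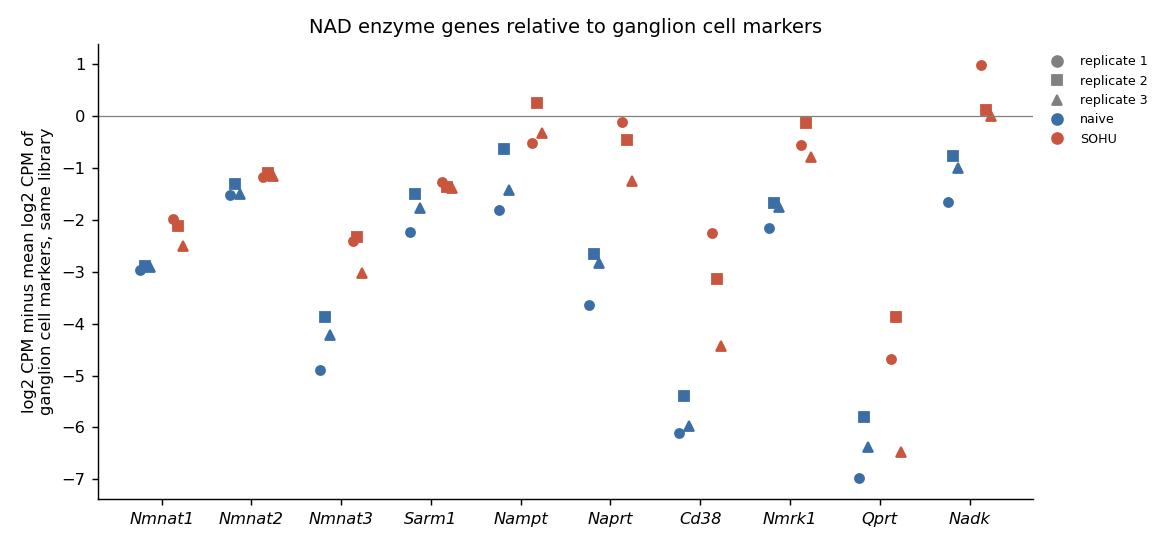
Log2 CPM of each gene minus the mean log2 CPM of 19 ganglion cell markers in the same library, with 1 point per library. SOHU points lie above the naive points for each gene but Qprt, with the smallest distance for Nmnat2 (0.30) and Sarm1 (0.49).

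The pattern of Nmnat2 over the 6 libraries was compared with that of 10420 genes of at least 3 mean log2 CPM by the root mean square difference of centred log2 CPM. The nearest genes were Atp2b2, a calcium pump of the plasma membrane (0.051), Bcan, the proteoglycan brevican (0.054), Medag (0.055), Sptbn4, a spectrin of the axon initial segment (0.061), and Samd12 (0.063). Their log2 fold changes ran from -0.87 to -0.76. Among the members, Sarm1 was the nearest to Nmnat2, at 0.192 with 5.43% of these genes nearer, followed by Nmnat1 at 0.264 with 12.4% nearer. Cd38 was the farthest, at 1.29 with 98.7% nearer.

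The rest of the pathway was taken from lists written down by name. Of 20 other genes of NAD synthesis and transport, 14 could be tested. In edgeR 0 passed (3 at an unadjusted p under 0.05, all higher), and DESeq2 called 3, all higher; the median log2 fold change was -0.09. The most abundant per kb was Naxe, which repairs damaged NADH, at 178.6 ± 8.20 CPM in naive and 194 ± 20.4 CPM in SOHU (SD, n = 3 each; log2 fold change 0.12, edgeR adjusted p = 0.56). The 6 that could not be tested, Tdo2, Ido1, Kmo, Haao, Acmsd and Nnmt, are mostly enzymes of the tryptophan route and stood below 0.82 CPM in each library.

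Of 21 other NAD-consuming and ADP-ribose-handling genes, 3 rose, against 8.02% of all genes tested, and 18 did not pass. The median log2 fold change was 0.29. Scaled to the ganglion cell markers, 21 of 21 were higher, against 72.8% of all genes tested. Parp3, a PARP of DNA break repair, had 13.8, 17.3 and 17.6 CPM in naive and 41.0, 31.3 and 39.2 CPM in SOHU (2.29-fold higher, edgeR adjusted p = 0.00993). Its groups lay far apart. Parp4, the PARP of vault particles, went from 4.95 ± 0.239 to 8.30 ± 0.674 CPM (SD, n = 3 each; 1.68-fold, edgeR adjusted p = 0.037), and Sirt7, a nuclear sirtuin, from 32.5 ± 3.70 to 47.3 ± 5.71 CPM (1.46-fold, edgeR adjusted p = 0.0435). Per kb of exon, the most abundant that did not pass was Macrod1, a hydrolase of ADP-ribose, with 29.7 CPM per kb over the 6 libraries.

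Of 11 genes of NMNAT2 turnover and of the kinase cascade of axon degeneration, 2 fell and 9 did not pass, with a median of -0.34. Among all genes tested 5.93% fell. Scaled to the ganglion cell markers none of the 11 was lower and 8 were higher, against 0.0113% and 72.8% of all genes tested. Mapk10, the neuronal JNK, went from 293.3 ± 29.1 to 184.3 ± 44.9 CPM (SD, n = 3 each; 1.59-fold lower, edgeR adjusted p = 0.0371). Map2k7, a kinase that activates JNK, had 51.1, 47.0 and 47.1 CPM in naive and 27.3, 33.5 and 38.9 CPM in SOHU (1.46-fold lower, edgeR adjusted p = 0.0492). The most abundant of the list per kb of exon was Skp1a, a subunit of the ubiquitin ligase that removes NMNAT2, at 852.2 ± 73.8 and 869 ± 122.4 CPM (log2 fold change 0.03, edgeR adjusted p = 0.918).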

How the data were processed

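RNA from 3 naive and 3 SOHU libraries was analysed. The values used are the authors' deposited counts, whole numbers of reads per gene without normalization, in 1 table whose 6 columns equalled the files of single libraries. The build was mm10 and the tools featureCounts, HISAT2, HISAT, Trim Galore, MultiQC and bcl2fastq 2.17, per the submitters' processing notes; the annotation release, strand setting and handling of multiply aligned reads were not given in the sources used here. Of 55335 genes, 55154 received a symbol by Ensembl identifier from GENCODE M21.

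Genes were filtered with filterByExpr, scaled by TMM and tested by edgeR's quasi-likelihood method (version 4.0.16, R 4.3.3) with group as the single term and Benjamini-Hochberg adjustment over 17687 genes. DESeq2 1.42.0, RLE scaling, no filter, a replicate block, scaling to ganglion cell markers and leaving out each library were alternatives. Ratios used reads plus 0.5 per kb of exon, and single values an exact two-sided permutation test. In data simulated for SOHU against naive, with 17311 genes in the fit, edgeR recovered 4% of 1.5-fold, 58% of 2-fold and 82% of 3-fold changes. The simulation changed far fewer genes than the 2467 called in the data, which makes the adjusted threshold stricter, so these shares may be too low. The fit of the data did call Sarm1 at 1.54-fold and Sirt7 at 1.46-fold. How often changes of the size fitted for the 6 members that did not pass would be missed is therefore not known. Replicates of a group differed by more than counting noise (chi-square per degree of freedom 12.8 to 80.1).

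The members and lists were chosen with earlier results of these data known. Named were all 10 members; of each further list the genes past the threshold (the 4 with the smallest p where more than 6 passed) and the most abundant one that did not pass; and the 5 genes nearest to Nmnat2. The listed genes that could not be tested were named in addition. Marker lists are given as counts, shares and mean levels. Cd74, Apoe and the other single glial and vascular markers were named after their values were seen.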

Additional observations from a re-analysis of the deposited data

How the results depend on the processing

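Across all genes, 1418 were higher and 1049 lower. DESeq2 gave 1751 lower and the fit without a filter 1675 lower. Scaled to the ganglion cell markers, 12882 (72.8%) were higher and 2 lower, and of the 10 NAD genes 8 were higher and 0 lower; there the log2 fold change was 0.36 for Nmnat2, 0.79 for Nmnat1, 0.51 for Sarm1 and 1.12 for Nampt. Leaving out 1 library gave 0 to 2051 higher and 0 to 1845 lower in edgeR and 1103 to 2362 and 669 to 2360 in DESeq2 (1703 lower without SOHU replicate 1). The edgeR counts of 0 came without naive replicate 1 (2086 higher and 1833 lower at an unadjusted p under 0.05) and without naive replicate 3 (2209 and 2042). The NAD genes called then numbered 0 to 3 higher and 0 to 2 lower. For Nmnat2 the log2 fold change ranged from -0.99 to -0.68 in edgeR and from -1.01 to -0.67 in DESeq2. Nampt turned without naive replicate 2 (0.19 in edgeR, 0.18 in DESeq2) or SOHU replicate 1 (0.19 in both), the edgeR range being -0.15 to 0.19, and Qprt without SOHU replicate 2 (-0.10 and -0.11), the edgeR range being -0.10 to 0.87. DESeq2 called 3 NAD genes higher, Nmnat3 added. The cause was not tested.

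With the replicate number as a block, 1178 genes were higher and 892 lower, and 1 NAD gene was lower because Sarm1 missed the threshold (adjusted p = 0.0508). No batch is stated for same-numbered libraries, and their deviations correlated at 0.16, 0.25 and 0.00. Naive and SOHU replicates 1 and 2 correlated best with their own number, and naive and SOHU replicate 3 did not. A block cannot change a difference of group means in this balanced design, so it says nothing about the ratios (-1.44 for Nmnat2 over Nmnat3 with and without it). Under the other alternatives all 129 recomputed ratios and values relative to markers stayed within 1 SD. Leaving out 1 of 3 libraries cannot move a difference of group means by 1 SD. For those omissions the outcome was therefore fixed in advance and says nothing about robustness. Depth limits Qprt, with 19 to 75 reads, most.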

Other observations

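Parp9, Parp10, Parp12 and Parp14, PARPs known as interferon-induced, were picked out after their values were seen, since their naive libraries lay far apart. Parp10 had 2.77, 22.3 and 8.62 CPM in naive replicates 1 to 3 and 12.2, 24.4 and 17.2 CPM in SOHU replicates 1 to 3. Parp12 had 11.0, 51.7 and 24.5 CPM and then 44.4, 41.7 and 44.5 CPM. Parp9 had 6.85, 33.7 and 15.4 CPM in naive and 31.1 to 35.5 CPM in SOHU. Parp14 had 5.51, 27.15 and 15.0 CPM in naive and 26.9, 44.8 and 36.7 CPM in SOHU, the largest log2 fold change of the 4 (1.19). In each of the 4 genes naive replicate 1 was the lowest library, and none passed in edgeR (adjusted p = 0.158 to 0.555).

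Nnt, the mitochondrial transhydrogenase that passes electrons from NADH to NADP and is known to be disrupted in the C57BL/6J substrain, was among the lowest of the tested genes of NAD synthesis and transport, at 0.424 to 0.559 CPM in naive and 0.332 to 1.08 CPM in SOHU. The labels give the strain as C57BL/6 without a substrain. Nadk2, the mitochondrial NAD kinase, had 49.8, 51.4 and 52.0 CPM in naive and 87.8, 91.3 and 53.0 CPM in SOHU (log2 fold change 0.60, edgeR adjusted p = 0.0714), and SOHU replicate 3 was the library nearest to the naive group, as for Nmnat2, Sarm1, Naprt and Cd38.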
